A study of Mus musculus with 23 samples.

Results

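The regions described here are 2520 distal THRAP3 peaks that were found in *Bmal1*-/- cells and not in wild-type (WT) cells. They were chosen by the measured peak calls: a peak of the BKO replicate 1 list was taken when it overlapped a peak of BKO replicate 2 by at least 1 bp, overlapped no peak of WT replicate 1 or WT replicate 2, and had its centre more than 1 kb from every annotated transcription start site of mm10. The 2520 peaks were 19.5% of the 12949 peaks of the BKO replicate 1 list and 57.8% of its 4359 replicated distal peaks. They are called BKO-only distal peaks below, and the 1839 replicated distal peaks that overlapped a WT peak are called shared distal peaks.

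The cells were β-TC6, an insulin-secreting line grown from the insulinoma of transgenic C57BL/6 mice and used at passages 5 to 15 without treatment. The groups used were unedited WT cells, *Bmal1*-/- cells (BKO) in which CRISPR-Cas9 had removed exon 8 of *Bmal1*, and *Clock*-/- cells (CKO) in which it had removed exons 6 and 7 of *Clock*. Edited cells were selected as clones, so a difference between genotypes cannot be told apart from a difference between clones. THRAP3 ChIP-seq was done on 2 WT and 2 BKO samples, each genotype with 1 input, and RNA-seq on 3 samples of each of the 3 genotypes. No label says that samples of a genotype came from separate clones or days, so the tests measure the spread between these samples, which may be technical.

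BMAL1 and CLOCK are the paired bHLH-PAS transcription factors that bind E-box sites and drive the core clock genes, among them the *Per* genes whose products feed back on the pair. THRAP3 is a nuclear protein with arginine- and serine-rich stretches that takes part in splicing and in transcription and is not known for a sequence-specific DNA-binding domain. In β cells, distal regulatory DNA is known for binding sites of NEUROD1, an E-box-binding bHLH factor, of MAF proteins, of FOXA and of homeodomain factors such as PDX1 and NKX6-1.

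Read totals were similar in the 4 ChIP-seq libraries and the shares of tags in peaks were not. The libraries held 12296107 to 14961095 tags. The 4 lists held 808 peaks (WT replicate 1), 6128 peaks (WT replicate 2), 12949 peaks (BKO replicate 1) and 12226 peaks (BKO replicate 2), and the tags in peaks made up 0.11%, 0.76%, 1.86% and 1.67% of the total. The enrichment of the libraries therefore moved with genotype, and its part in the absence of a WT peak cannot be told apart from that of the genotype. Without WT replicate 2 the number of BKO-only distal peaks was 3930, without WT replicate 1 it was 2558, and with a single BKO list it was 5712 (without BKO replicate 1) or 5715 (without BKO replicate 2). In the opposite direction, 36 distal peaks were in both WT lists and in neither BKO list. The short WT replicate 1 list limits that number, since 610 peaks of WT replicate 2 overlapped one of WT replicate 1. Of the 4173 distal peaks of the WT replicate 2 list, 1384 (33.2%) overlapped no BKO peak. All 12 β-cell markers, among them *Ins1*, *Ins2* and *Pdx1*, had a TPM (a transcript level scaled for length and library total) of at least 20 in all WT and BKO libraries, and the 6 exocrine, duct and stromal markers in the table summed to 1.92 to 5.04 TPM. The 4 markers of other islet endocrine cells in the table, *Gcg* among them, summed to 557 to 576 TPM in WT and 67.6 to 76.5 TPM in BKO libraries, and the β-cell markers to 5.85e+04 to 6.1e+04 TPM and 4.27e+04 to 4.62e+04 TPM. In bulk RNA, fewer cells of a type and less RNA per cell cannot be told apart, and the part of these shifts in the results below was not tested.

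Some of the strongest BKO-only distal peaks carried short words bound by β-cell and stress-responsive factor families, and 6 of the 10 with the largest mean signal are printed to show them. The printed sequences are the deposited peaks on the plus strand of GRCm38.p6, the assembly of mm10, taken from RefSeq. Capitals mark exact matches on either strand to the AP-1 word TGANTCA, the antioxidant response element TGACNNNGC, the MAF core TGCTGA, the FOXA word TGTTTAC, the E-boxes CACGTG and CAGATG, the homeodomain word TAATTA and the HNF1 core GTTAAT, where N is any base and overlapping matches run together. The first 4 were chosen for their AP-1 words and the last 2 for a FOXA word near the centre. The regions of the 10 that are not printed had no AP-1 or FOXA word. Among them, the peaks in *Per2* and *Dab1* had none of the marked words.
upstream of Slc44a3: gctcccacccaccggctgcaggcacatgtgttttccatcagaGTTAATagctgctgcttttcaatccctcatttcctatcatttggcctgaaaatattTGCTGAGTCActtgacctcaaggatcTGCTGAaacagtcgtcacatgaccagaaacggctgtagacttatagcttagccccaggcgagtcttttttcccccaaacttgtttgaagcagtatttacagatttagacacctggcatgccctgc
intron of Ift81: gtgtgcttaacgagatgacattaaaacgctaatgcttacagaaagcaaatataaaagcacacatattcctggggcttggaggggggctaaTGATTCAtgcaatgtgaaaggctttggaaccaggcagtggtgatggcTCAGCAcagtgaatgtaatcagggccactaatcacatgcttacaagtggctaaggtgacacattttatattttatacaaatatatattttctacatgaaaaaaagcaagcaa
between genes, towards Fpgt: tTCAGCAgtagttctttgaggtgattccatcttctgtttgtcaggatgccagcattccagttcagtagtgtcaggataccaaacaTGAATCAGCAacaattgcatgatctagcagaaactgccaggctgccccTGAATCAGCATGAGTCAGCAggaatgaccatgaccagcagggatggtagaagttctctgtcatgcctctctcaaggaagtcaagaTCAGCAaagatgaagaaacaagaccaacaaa
intron of Vps37b: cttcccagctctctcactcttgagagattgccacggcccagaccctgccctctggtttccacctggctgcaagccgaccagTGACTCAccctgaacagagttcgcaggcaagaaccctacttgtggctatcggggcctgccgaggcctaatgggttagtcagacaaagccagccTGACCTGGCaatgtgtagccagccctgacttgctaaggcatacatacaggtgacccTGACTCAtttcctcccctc
upstream of Rflna: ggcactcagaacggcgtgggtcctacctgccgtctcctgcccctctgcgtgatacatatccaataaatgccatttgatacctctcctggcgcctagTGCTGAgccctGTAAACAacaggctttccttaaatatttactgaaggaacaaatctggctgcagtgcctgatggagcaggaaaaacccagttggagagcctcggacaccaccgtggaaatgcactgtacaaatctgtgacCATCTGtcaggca
upstream of Tspan5: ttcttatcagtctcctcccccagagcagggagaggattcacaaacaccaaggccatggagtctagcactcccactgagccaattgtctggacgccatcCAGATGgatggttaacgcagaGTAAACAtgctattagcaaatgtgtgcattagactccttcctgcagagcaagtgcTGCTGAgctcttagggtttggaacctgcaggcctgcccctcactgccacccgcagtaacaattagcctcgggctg
The region upstream of *Slc44a3* lies at chr3:121577108-121577356, and its AP-1 word, 20 bp from the centre, overlaps a MAF core and an antioxidant response element. The region in *Ift81* is chr5:122558730-122558978 and has 1 AP-1 word and 1 MAF core. The region on chromosome 3 between *Gm5285* and *Fpgt*, chr3:155370796-155371044, has 3 AP-1 words and 5 MAF cores, and 56% of the 300 bp around its centre is soft-masked as repeat. The region in *Vps37b*, chr5:124007014-124007262, has 2 AP-1 words. The regions upstream of *Rflna*, chr5:124960363-124960611, and of *Tspan5*, chr3:138655086-138655334, each have a FOXA word, 14 bp and 2 bp from the centre, a MAF core and a CAGATG E-box. None of the 10 strongest regions had the E-box CACGTG, to which BMAL1 and CLOCK bind, in the 300 bp around its centre.

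THRAP3 signal in the BKO-only distal peaks was moderate and alike in both BKO libraries. The signal is the number of tags in a peak scaled to a library of 10000000 tags. It chose these peaks and is given as a description. In BKO replicate 1 the lowest was 7.07, the median 12.6 and the highest 55, and in BKO replicate 2 they were 6.68, 12 and 36.1. The shared distal peaks had medians of 17.3 and 16.7 and reached 183 and 168. Both libraries were within 1.5 times of each other at 2292 of the 2520 peaks (91%), with a Spearman rho of 0.623 across peaks, which share libraries and are not independent. The median fold over input was 10.8 in BKO replicate 1 and 9.98 in BKO replicate 2, and 11.7 and 12.3 for the shared distal peaks.

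**Figure D1:**
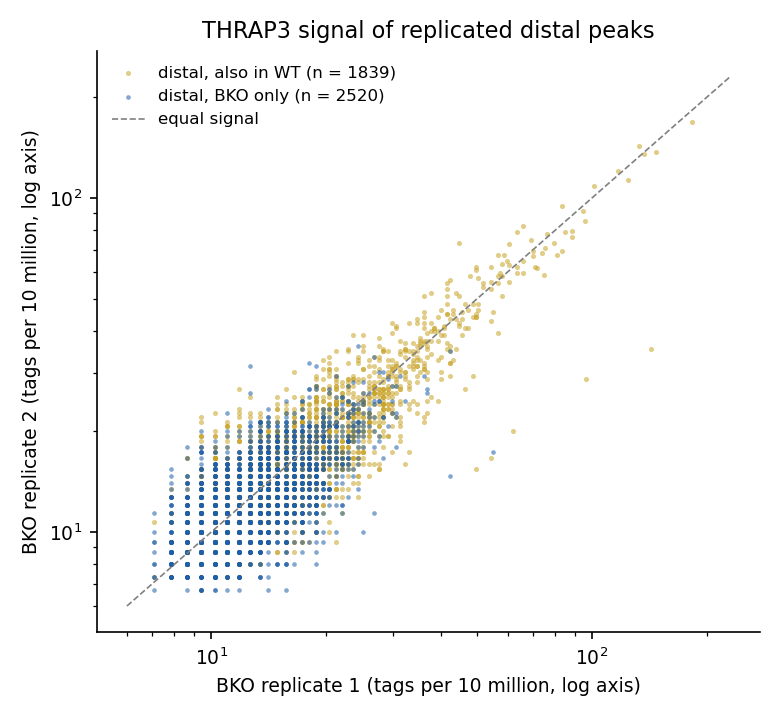
Signal of each replicated distal peak in BKO replicate 1 (horizontal, tags per 10000000, log axis) and BKO replicate 2 (vertical, same unit, log axis), with BKO-only peaks in blue, peaks shared with WT in yellow and a dashed line of equal signal. The blue points reach 55 on the horizontal axis, the yellow points reach 183, and the points furthest below the line include the *Per2* regions.

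The absence of a WT peak fell steadily with BKO signal. Of the 550 replicated distal peaks with a mean BKO signal below 10, 488 (88.7%, 95% Wilson interval 85.8 to 91.1) had no WT peak. The share was 69.5% from 10 to 15, 47.8% from 15 to 20 and 24.1% from 20 to 30. From 30 to 50 it was 8 of 162 (4.94%), and at 50 and above it was 0 of 56, with an upper bound of 6.42%. Of the BKO-only distal peaks 1591 (63.1%) had a signal above the median of the WT replicate 2 list in both BKO libraries. The centre of the nearest WT peak was a median of 69367 bp away, and for 146 peaks it was within 1 kb.

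**Figure D2:**
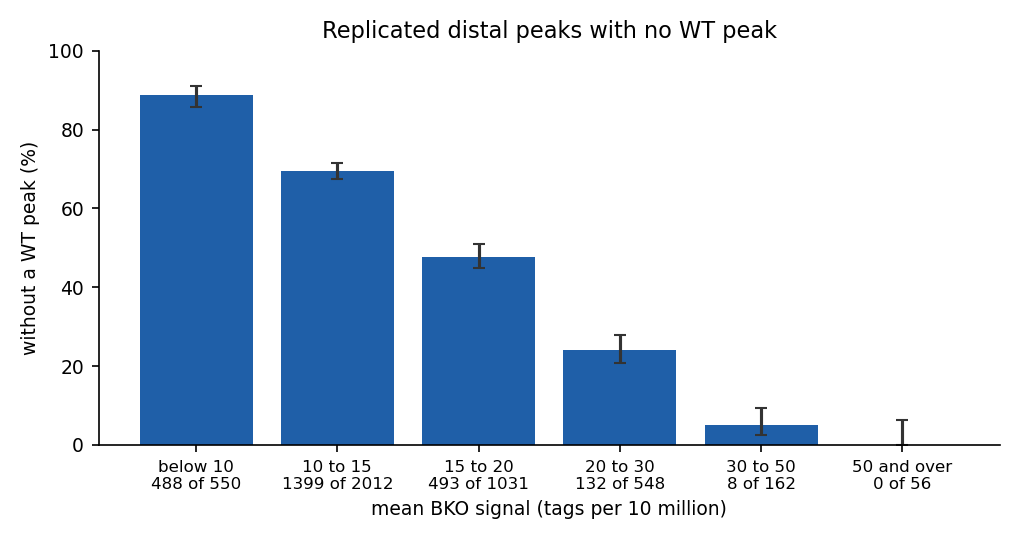
Share of replicated distal peaks with no WT peak (vertical, percent, bars with 95% Wilson intervals) by mean BKO signal (horizontal, tags per 10000000), with the peaks in each band counted under the bars. The share falls from 88.7% below 10 to 0 of 56 at 50 and above.

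The peaks with the largest mean signal were spread over introns and the space between genes. The region upstream of *Rflna*, a filamin-binding actin regulator, was the strongest, at 42.4 in BKO replicate 1 and 34.8 in BKO replicate 2. It lies between genes, 42734 bp from the *Rflna* start site. A region at chr15:67979561-67979809, 36881 bp from *Gm49409*, was at 36.9 and 26.7, and the region upstream of *Slc44a3*, a choline transporter-like gene, was at 36.9 and 26.1. The intronic region of *Ift81*, a component of intraflagellar transport, was at 31.4 and 29.4. The intronic region of *Dab1*, an adaptor of reelin signalling, at chr4:104470567-104470815, was at 26.7 and 33.4, and that of *Vps37b*, an ESCRT-I subunit, at 28.3 and 30.1. The region upstream of *Tspan5*, a tetraspanin, was at 30.6 and 27.4. The region between *Gm5285* and *Fpgt* was at 24.3 and 36.1, and its fold over input was the largest of the 10, at 57.74 and 42.23.

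Another region of the 10 lies in an exon of *Per2*, the period repressor of the clock, and stood apart from the others. At chr1:91448655-91448903, 1086 bp from a *Per2* start site, the signal was 55 in BKO replicate 1 and 17.4 in BKO replicate 2, a ratio of 3.16. The other BKO-only distal peak of *Per2*, chr1:91439830-91440078, was also in an exon, at 42.4 and 14.7, a ratio of 2.88. These were the largest ratios among the 2520 peaks, of which 12 had a ratio of at least 2. Exons make up 13.5% of the *Per2* gene, yet all of its peaks in every list were centred in an exon, 4 of 4 in WT replicate 1, 11 of 11 in WT replicate 2, 12 of 12 in BKO replicate 1 and 9 of 9 in BKO replicate 2. The median signal of these peaks was 12.6, 24.8, 54.6 and 19.4 in that order. At the 8 *Per2* peaks found in both BKO lists the ratio ran from 2.88 to 4.25, and 8 of the 9 replicated peaks with a ratio above 2.8 anywhere in the genome were in *Per2*. DNA that carries the exons of *Per2* alone would give peaks in exons too, so whether these signals come from THRAP3 at the chromosomal gene was not tested.

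The members just inside the 1 kb limit were a region in an intron of *Agap3*, at 15.7 and 13.4, and a region in *Gm12514*, at 10.2 and 11.4, both 1012 bp from a start site. Just outside it, a region in *Snx30*, 977 bp from a start site, was at 16.5 and 12, and a region 968 bp from *Gm25099* at 21.2 and 16.7.

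Introns held most of the BKO-only distal peaks. By the centre of the peak, 1350 (53.6%, 95% Wilson interval 51.6 to 55.5) lay in introns, 1072 (42.5%, 40.6 to 44.5) between genes and 98 (3.89%) in exons, of which 19 were in coding sequence. The shared distal peaks were placed almost identically, with 54.2% in introns, 42.4% between genes and 3.37% in exons. Of all bases more than 1 kb from a start site, 39.7% are intronic, 57.1% lie between genes and 3.29% are exonic, so the intronic share of the peaks was above that of the distal genome. The split moved to 48.1% and 48.8% when only protein-coding genes were counted.

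The peaks lay at middle distances from genes. The nearest start site was a median of 15739 bp away, with quartiles of 6647 and 33663 bp and a longest distance of 408428 bp. Within 5 kb of a start site lay 477 peaks (18.9%), 1217 (48.3%) were at 10 to 50 kb and 139 (5.52%) beyond 100 kb. Every member was on an assembled chromosome. Their density ran from 0.257 per Mb on chromosome X to 1.44 per Mb on chromosome 15, and the BKO-only share of the replicated distal peaks ran from 48.9% on chromosome 7 to 65.7% on chromosome 9.

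Most BKO-only distal peaks had no other BKO-only distal peak within 50 kb. Peaks of other kinds were not counted here, and 379 BKO-only distal peaks had a WT peak centre within 10 kb. When peaks with less than 50 kb between neighbours were joined, 1911 of 2182 runs held 1 peak and 12 runs held 4 or more, 52 peaks in all. The largest run had 6 peaks at chr8:120409677-120543790 inside *Gse1*, which held 9 in all. *Gse1* lies within *Gm20388*, an annotation that spans 15 of the peaks. *Fgfr2*, a fibroblast growth factor receptor whose annotated span takes in several other genes, held 8, each with another gene as its nearest tested gene. *Btbd9*, *Rptor* (the mTORC1 subunit), *Snd1* and *Snx29* held 5 each. *Camta1*, *Celf4*, *Ctnnd2* and *Dab1* held 4. In all, 59 genes held 3 or more and 1228 genes held at least 1. Genes that held a peak were long, with a median of 129 kb for the protein-coding ones against 17.3 kb for all protein-coding genes.

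The 300 bp around the centres often held E-boxes of the kind bound by NEUROD1 and related bHLH factors. CAGATG was in 1085 of the 2520 windows (43.1%, 95% Wilson interval 41.1 to 45), against 22.1% of windows taken 1 kb to either side and 21.8% of all 300 bp windows of the genome. CAGCTG was in 28.8%, against 12.5% beside the peaks and 10.5% of the genome. CAGGTG was in 19.9%, against 19.8% beside the peaks. These 3 words were searched after the data had been seen. Either CAGATG or CAGCTG was in 1515 windows (60.1%), and 57.9% of the shared distal peaks had one. CACGTG, the site of BMAL1 and CLOCK, was in 131 windows (5.2%, 4.4 to 6.14), against 3.27% beside the peaks, 2.88% of the genome and 4.57% of the shared distal peaks, so the intervals of both peak sets overlapped.

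AP-1 words were less common in the BKO-only distal peaks than in the shared ones. TGANTCA was in 435 windows (17.3%, 15.8 to 18.8), against 9.76% beside the peaks and 8.84% of the genome, and in 29.5% (27.5 to 31.6) of the 1837 shared distal peaks for which a window was read. Since shared peaks were stronger, the shares were also taken at equal signal. At a mean signal of 10 to 15, AP-1 was in 17.7% of the BKO-only and 23.5% of the shared peaks. At 15 to 20 it was in 16% (13.1 to 19.5) and 26.4% (22.8 to 30.3), and at 20 to 30 in 22.7% (16.4 to 30.6) and 33.2% (28.8 to 37.8). The antioxidant response element, a site of NRF2 with small MAF proteins, was in 18.7% of the BKO-only and 28.4% of the shared peaks, and an AP-1 word together with a MAF core in 6.79% and 17%.

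Other words of β-cell factors were also more common in the BKO-only distal peaks than beside them. The FOXA word was in 13.9%, against 4.76% beside the peaks and 18.5% of the shared peaks. The MAF core was in 31.7%, against 20.7% and 38%, the homeodomain word in 15.8%, against 9.31% and 15%, and the HNF1 core in 18.3%, against 9.92% and 17.3%. Words of promoters were rare. The GC-box GGGCGG was in 7.3%, against 65.7% of the 1601 BKO-only peaks at promoters, and the ETS word CCGGAAG in 1.47%, against 16.7%. The CTCF motif was in 27 windows (1.07%), and the NF-Y word CCAAT in 33.8%, against 35.4% beside the peaks. The median GC content was 45.5%, with 44.3% beside the peaks and 64% at BKO-only promoter peaks. A median of 7.67% of the bases was soft-masked, against 17.3% beside the peaks.

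**Figure D3:**
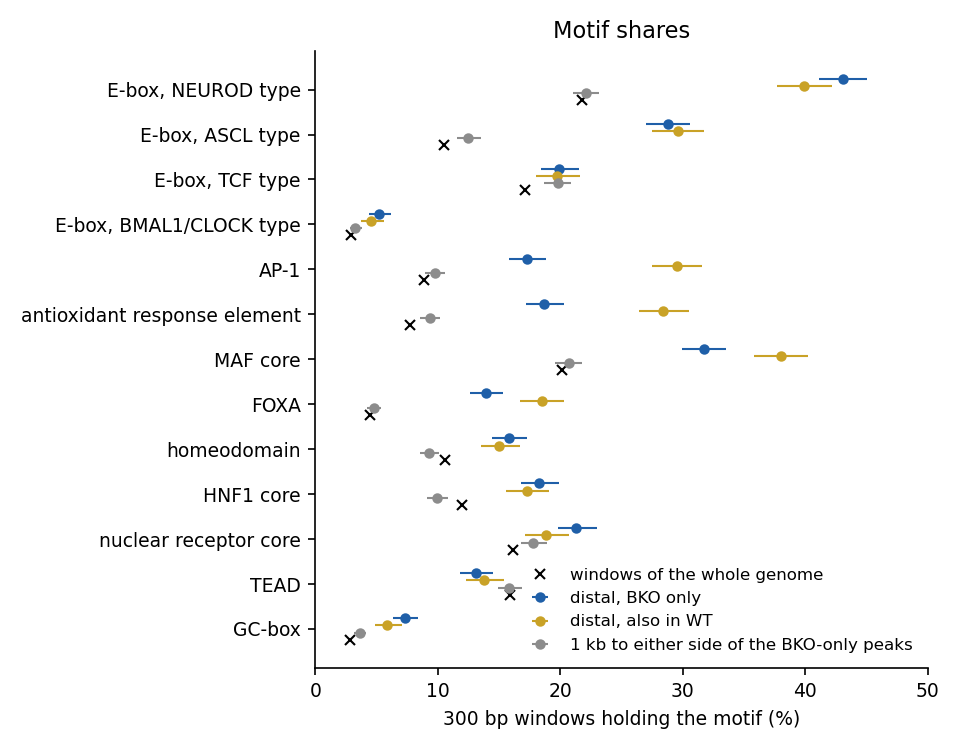
Share of 300 bp windows that hold each motif (horizontal, percent, points with 95% Wilson intervals) for BKO-only distal peaks, shared distal peaks and windows 1 kb to either side of the BKO-only peaks, with crosses for all windows of the genome. In the E-box labels, NEUROD type is CAGATG, ASCL type CAGCTG and TCF type CAGGTG, and the AP-1 line shows 17.3% for the BKO-only and 29.5% for the shared peaks.

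The words sat near the peak centres. In 20 bp bins within 40 bp of the centre, CAGATG was found in a mean of 3.99% of the BKO-only distal peaks per bin, against 1.64% in bins at least 400 bp away, and FOXA in 1.35% against 0.302%. For AP-1 these were 1.74% and 0.611%, a ratio of 2.84, and in the shared distal peaks 4.52% and 0.789%, a ratio of 5.73. CACGTG had a ratio of 1.55. CA repeats went the other way, at 0.129% in the centre and 0.873% outside.

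**Figure D4:**
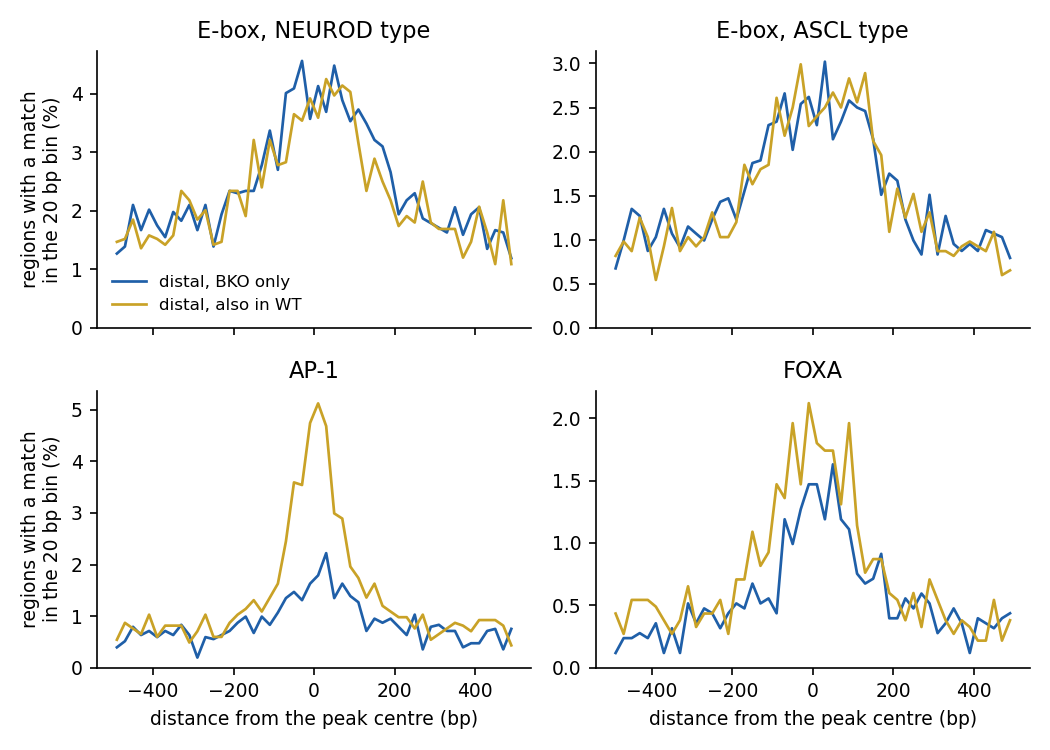
Share of regions with a match in each 20 bp bin (vertical, percent) by distance from the peak centre (horizontal, bp) for 4 motifs, with BKO-only distal peaks in blue and shared distal peaks in yellow. All 4 rise at the centre, and for AP-1 the yellow line is far above the blue, at central means of 4.52% and 1.74%.

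AP-1 and FOXA words varied little with the strength of the peak, while both common E-boxes were rarer in the weakest peaks. In 4 equal bands of 630 BKO-only distal peaks from strongest to weakest, AP-1 was in 17.8%, 16.2%, 18.9% and 16.2%, and FOXA in 14%, 13.8%, 14% and 14%. CAGATG was in 46.2%, 43.2%, 44.3% and 38.6%, and CAGCTG in 33.8% (30.2 to 37.6), 30.2%, 26% and 25.1% (21.9 to 28.6). From strongest to weakest the MAF core went from 34.4% to 27.9%, CACGTG from 6.51% to 3.81% and the GC-box from 9.05% to 5.71%. CAGATG was in 44.7% of the intronic and 41% of the intergenic peaks, and AP-1 in 17.1% and 18%.

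The RNA-seq was not used to choose the peaks and was tested with limma on log2(TPM + 1), 3 samples a group. A gene was called at an adjusted p under 0.01 and a fold change above 2 in either direction. Of the 1844 tested genes nearest to a BKO-only distal peak, 116 (6.29%) rose in *Bmal1*-/- cells, against 3.83% of all 15031 genes tested, and 159 (8.62%) fell, against 7.97%. The median log2 fold change was −0.01, and −0.04 over all genes tested. For the 1414 genes nearest to a shared distal peak the shares were 6.01% and 8.77%, so the genes beside BKO-only and shared distal peaks were called at nearly the same rate. For the 1561 genes nearest to a BKO-only promoter peak they were 4.61% and 3.72%. Of the 910 tested genes that held a BKO-only distal peak, 6.7% rose and 6.92% fell. For the 1270 genes with a BKO-only and no shared distal peak the shares were 6.14% and 8.9%.

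Among genes at the 10 strongest regions, several were higher in *Bmal1*-/- cells, and *Per2* was lower, at a log2 fold change of −0.84 (adjusted p = 0.00083). Over all genes tested, 18.4% rose and 21% fell at an adjusted p under 0.01 and any fold. *Rflna* was at 105, 118 and 107 TPM in WT and 245, 241 and 242 TPM in BKO libraries, which was 1.14 higher on the log2 scale (standard error 0.06, adjusted p = 6.8e-07). *Dab1* was at 5.9, 6.15 and 5.33 TPM in WT and 35.0, 39.4 and 36.8 TPM in BKO, which was 2.49 higher on that scale (standard error 0.15, adjusted p = 1.3e-06). Both genes had every BKO library above every WT library. *Vps37b* rose by 0.92 on the log2 scale (adjusted p = 3.7e-06), from a mean of 59.3 to 113 TPM, and *Slc44a3* by 0.98 (adjusted p = 1.5e-05), from 48.5 to 96.2 TPM. These rises of *Vps37b* and *Slc44a3* were under a fold of 2, so neither gene was called. *Ift81* (0.10, adjusted p = 0.232), *Fpgt* (−0.13, adjusted p = 0.363) and *Tspan5* (0.32, adjusted p = 0.0323) did not pass the test. *Zfat*, the nearest tested gene to the chromosome 15 region at 279102 bp, was 0.49 higher, under a fold of 2, and its adjusted p of 0.00907 became 0.0136 to 0.0373 when any 1 library was left out.

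**Figure D5:**
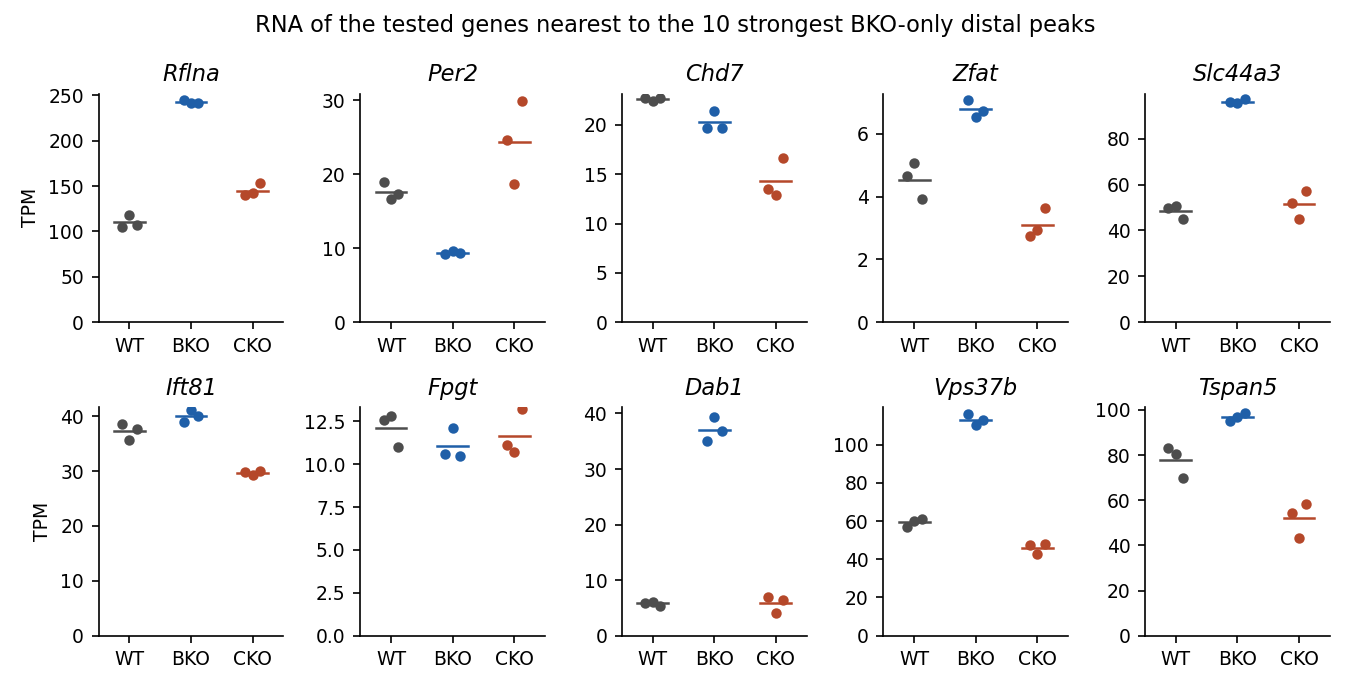
TPM (vertical, from 0) of the tested gene nearest to each of the 10 strongest BKO-only distal peaks in WT, *Bmal1*-/- (BKO) and *Clock*-/- (CKO) libraries, with 1 point per library and a line at the mean of 3. *Dab1* has BKO points at 35.0 to 39.4 and WT points at 5.33 to 6.15, and *Fpgt* has overlapping groups.

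The 10 largest rises beside BKO-only distal peaks included *Dab1* and several other genes that WT cells expressed weakly. *Ccnjl*, a cyclin J-like gene with 3 peaks in its introns at signals of 12 to 18.7 over both libraries, was at 0.514, 1.1 and 0.525 TPM in WT and 15.4, 14.6 and 16.2 TPM in BKO libraries (log2 fold change 3.27, standard error 0.15, adjusted p = 2e-07). *Nrp2*, a co-receptor of semaphorins and VEGF, was nearest to 4 peaks, 1 of them in its own intron. Others of the 4 lay in introns of *Pard3b*, 66438 and 214260 bp from an *Nrp2* start site. *Nrp2* was at 1.11, 0.98 and 1.28 TPM in WT and 15.4, 14.8 and 15.9 TPM in BKO libraries (2.95, adjusted p = 1e-07). *Nfib*, a nuclear factor I transcription factor with 2 intronic peaks, rose by 2.5 on the log2 scale to a mean of 5.54 TPM. *Fbxl13*, *Epb41l4a*, *Gprc5c*, *Ccdc13* and *Fam184b* rose by 2.13 to 2.78 and had 1 peak each. *Tmsb4x*, the actin-monomer-binding thymosin β4, was the most abundant. It went from 705, 669 and 789 TPM to 3110, 3850 and 3450 TPM (2.26, adjusted p = 4.4e-07), and its peak at chrX:167206524-167206772, 2179 bp from a start site, held CACGTG and a FOXA word, at a signal of 24.3 and 19.4.

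The 10 largest falls reached further on the log2 scale. *Gabbr2*, a GABA-B receptor subunit with 2 intronic peaks, was at 69.7, 70.2 and 57.5 TPM in WT and 1.16, 0.998 and 1.25 TPM in BKO libraries (log2 fold change −4.96, standard error 0.19, adjusted p = 5.3e-08). *Aard* was at 272, 261 and 289 TPM in WT and 11.9, 14.8 and 9.64 TPM in BKO libraries. Its nearest peak, 113552 bp from a start site, was among the weakest of those beside named genes, at 7.85 and 8.69. *Sdc3*, the proteoglycan syndecan 3, was at a log2 fold change of −3.47, *Slc39a8*, the zinc and manganese transporter ZIP8, at −3.24, and *Oprd1*, the delta opioid receptor, at −2.9, all with groups that did not overlap. *Slc39a8* held 2 peaks and *Oprd1* 1. The other 5 of the 10 largest falls were short or unnamed genes, *Gm43429*, *Mir344i*, *Gm379*, *Mir421* and *Gm37711*, at log2 fold changes of −2.92 to −3.24. *Gm43429* lies inside *Slc39a8*, so its reads may not be its own.

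For the gene lists that follow, rose and fell mean an adjusted p under 0.01 at any fold, which 18.4% and 21% of all genes tested reached, and 10.2% of all genes of the RNA table held or were nearest to a BKO-only distal peak. The 10.2% was taken over 20499 genes, of which only those tested could count as nearest. It is therefore a low reference for lists with most genes tested, such as the core clock list (22 of 24). A gene with a peak held one or was nearest to one at any distance. That distance was 215791 bp for *Ins1*, 378433 bp for *Id2* and 67655 bp for *Cplx2*, and the peak nearest to *Mafa* lay in an intron of *Zc3h3*. Of 24 core clock genes 4 (16.7%) held or were nearest to a BKO-only distal peak, and of these 1 rose and 1 fell. In the whole list 9 of 22 tested rose and 6 fell. *Per2*, whose exonic peaks carry the limit given above, was at 18.9, 16.6 and 17.4 TPM in WT and 9.17, 9.57 and 9.38 TPM in BKO libraries, a change of −0.84 in log2 (standard error 0.14, adjusted p = 0.00083). *Hlf*, a clock-controlled PAR bZIP factor, went from 8.31, 8.33 and 7.29 TPM to 29.1, 29.8 and 33.4 TPM, a change of 1.82 in log2 (standard error 0.14, adjusted p = 4.3e-06). Its peak, chr11:90417859-90418107, lay 27088 bp from a start site and held CACGTG and a GC-box. *Arntl*, the annotation's name of *Bmal1*, held 1 weak intronic peak of 8.64 and 10.7 and was at 3.63, 3.52 and 4.22 TPM in WT and 3.52, 3.32 and 3.41 TPM in BKO libraries (−0.11, adjusted p = 0.539). The edit takes out a single exon, so this level does not check the knockout. *Thrap3* itself was at 86.4, 86.6 and 72.7 TPM in WT and 77.9, 79.6 and 81.3 TPM in BKO libraries and did not pass the test (adjusted p = 0.852).

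The share of genes that held or were nearest to a BKO-only distal peak, 10.2% over all genes, was 25.4% of 59 SNARE and vesicle fusion genes, 31.5% of 54 ion channel subunits, 31.4% of 35 β-cell identity genes and 45% of 40 neuronal adhesion genes. Only tested genes could count as nearest. Of the SNARE and vesicle list 56 genes were tested and of the β-cell list 34, so for these lists 10.2% is a low reference. Of the ion channel list 36 were tested and of the neuronal adhesion list 27. Protein-coding genes that held a peak had a median length of 129 kb against 17.3 kb for all, and the part of gene length in the shares of genes with a peak was not tested. Of the 15 SNARE and vesicle genes with a peak, 8 rose and 2 fell at any fold, against 18.4% and 21% of all genes, and in the whole list 17 of 56 tested rose and 13 fell. *Cadps*, a priming factor of dense-core vesicles with 3 peaks at signals of 16.7 to 25.9, went from 83.3, 77.1 and 75 TPM in WT to 122, 125 and 127 TPM in BKO libraries (0.66, adjusted p = 0.00028). *Cplx2*, a complexin that clamps SNARE complexes, rose by 0.83 on the log2 scale and *Sytl4*, a granule-docking protein, by 0.70, while *Syt13* was at 0.02 (adjusted p = 0.818).

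Of 16 tested ion channel genes with a peak, 3 rose and 3 fell at any fold, against 18.4% and 21% of all genes, and in the whole list 5 of 36 rose and 12 fell. *Kcnip1*, a subunit that binds Kv4 channels, had 2 intronic peaks and went from 21.4, 20.5 and 20.7 TPM to 78.7, 84.5 and 81.8 TPM (1.92, standard error 0.08, adjusted p = 9.5e-08). *Cacna1h*, a T-type calcium channel, rose by 1.08 (adjusted p = 0.00123). *Cacna2d1*, an auxiliary calcium channel subunit, was at −0.78 (adjusted p = 0.00428), with an adjusted p of 0.0107 to 0.0202 when any 1 library other than WT replicate 3 was left out. Among the 11 β-cell identity genes with a peak 3 rose and 2 fell, and in the whole list 8 of 34 rose and 10 fell. *Slc30a8*, the zinc transporter of insulin granules, was nearest to 3 peaks and fell by 0.70 (adjusted p = 0.00066). *Ins1*, *Chga* and *Scg2* were at 0.03, −0.18 and 0.14 and did not pass the test. *Mafa*, a β-cell transcription factor that binds the MAF core, was at −0.50 (adjusted p = 0.00161), and at −0.24 (adjusted p = 0.0523) after the median of its chromosome was subtracted. Of 14 tested neuronal adhesion genes with a peak 3 rose and 5 fell, and in the whole list 5 of 27 rose and 12 fell.

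Genes of the factor families whose words the peaks carry changed in both directions. At any fold, which 18.4% of all genes reached as rises and 21% as falls, 1 of 7 bZIP and AP-1 genes with a peak rose and 2 fell, and in the whole list 4 of 31 rose and 14 fell. *Jun*, a subunit of AP-1, was nearest to 2 peaks, 28583 and 190855 bp from a start site. Its RNA went from 45.6, 46.2 and 46.9 TPM to 143, 134 and 141 TPM (log2 fold change 1.57, standard error 0.08, adjusted p = 3.7e-07). *Atf4*, the factor of the integrated stress response, had a peak at the end of the gene, 2075 bp from a start site, and went from 893, 915 and 876 TPM to 320, 302 and 318 TPM (−1.51, standard error 0.06, adjusted p = 5.1e-08). Of 7 E-box-binding bHLH genes with a peak 1 rose and 2 fell, and in the whole list 9 of 27 rose and 5 fell, with *Mnt*, a repressor of the MYC network, at 0.82 (adjusted p = 0.00122, and 0.36 with an adjusted p of 0.0218 after the median of its chromosome was subtracted) and *Id2*, an inhibitor of bHLH factors, at −0.58 (adjusted p = 0.00024). In the ETS list 2 of 15 tested rose and 4 fell. Of the 2 ETS genes with a peak, *Etv1* fell by 1.07 (adjusted p = 0.00039) and *Etv6* was at 0.24 (adjusted p = 0.236). Of 7 tested splicing regulators with a peak 3 rose and the other 4 did not pass the test, while in the whole list 3 of 46 rose and 15 fell. *Celf4*, a neuronal splicing regulator with 4 peaks, was at 0.12 (adjusted p = 0.213).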

How the data were processed

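THRAP3 ChIP-seq peaks of 2 WT and 2 *Bmal1*-/- β-TC6 samples and RNA-seq of 3 WT, 3 *Bmal1*-/- and 3 *Clock*-/- samples were used, grouped by the sample labels. The authors aligned ChIP reads with Bowtie2 2.2.4 to mm10 and called peaks per sample against 1 input per genotype with HOMER. Per the file headers, peaks passed a false discovery rate of 0.001, a fold over input of 4 and a Poisson p-value of 0.0001. The deposited signal is the tag count scaled to 10000000 tags, and the deposited score, fold over input, p-value and focus ratio (a fraction) are the authors' values. The deposited RNA values are TPM by the authors, who list STAR 2.5.0, featureCounts 1.5.3 and DESeq2 1.22.1. Their own comparison tables hold log2 fold changes and p-values and were not used. eCLIP and input libraries were not analysed here.

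Overlaps, places, distances and exact motif matches on both strands were computed in Python 3.11.15 on GENCODE vM21 and RefSeq GRCm38.p6. Overlap needed 1 bp, and motif windows were 300 bp. The annotation matched 20499 of the 20599 gene IDs with RNA values. For RNA, log2(TPM + 1) of all 9 libraries entered 1 limma model (version 3.58.1, R 4.3.3), which kept genes that reached 1 TPM in 3 or more libraries, with Benjamini-Hochberg adjustment over all genes kept. The nearest gene was taken by start site among tested genes. TPM keeps no depth, and its fold changes understate those of low genes. Wilson intervals at 95% cover counting error only. Overlap and test were tested on simulated data. The members, the lists and the tests were chosen with earlier results of these data known. Regions were named as the 10 with the largest mean signal and the 2 on each side of the distance limit. Genes were named as those at these regions, the 10 largest called rises and falls with a mean of at least 5 TPM and groups that did not overlap, genes with 3 or more peaks (at most 10), list members with a peak (at most 4 a list by TPM), *Arntl* and *Thrap3*. The 2nd *Per2* region, and the ratios at *Per2*, were chosen after their values were seen. Of the items these rules name, 1 region and 1 gene are not reported here.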

Additional observations from a re-analysis of the deposited data

Results flagged for a closer look

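The effects of the 2 knockouts differed at 3 core clock genes that held or were nearest to a BKO-only distal peak, by limma's test of the difference. For *Per2* the log2 fold change in *Bmal1*-/- cells less that in *Clock*-/- cells was −1.27 (adjusted p = 5.4e-05), with *Clock*-/- libraries at 24.7, 18.7 and 29.9 TPM. For *Hlf* it was 1.18 (adjusted p = 6e-05), with 12.7, 10.7 and 16.1 TPM in *Clock*-/- libraries, between WT and *Bmal1*-/-. For *Arntl* it was −1.68 (adjusted p = 9.6e-06), with 13.2, 10.6 and 16.2 TPM in *Clock*-/- libraries. No ChIP-seq of *Clock*-/- cells was analysed here, so nothing can be said of THRAP3 at these regions there.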

How the results depend on the processing

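The number of BKO-only distal peaks was within 1.5 times of 2520 for the overlap, distance and start-site alternatives tried (2043 to 2719), and moved to 960 when only peaks at or above the median score of each list were used. Leaving out 1 ChIP-seq library gave 2558 to 5715, with 3930 without WT replicate 2, 5712 without BKO replicate 1 and 5715 without BKO replicate 2, where peaks of a single BKO list are let in. The intergenic share was 45.6% over 5 kb from a start site, and with protein-coding genes alone 48.1% were intronic and 48.8% intergenic. In 200 bp windows the AP-1, CACGTG and GC-box shares were 13.5%, 3.37% and 5.36%, since smaller windows hold fewer words. AP-1 was at 15% to 19.8% with 1 ChIP-seq library left out. CACGTG was at 6.28% at or above the median score, and the GC-box at 8.68% with protein-coding start sites alone. The cause of these last shifts was not tested.

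With 1 RNA library left out, genes nearest to a peak that rose numbered 103 to 124 (5.59% to 6.72%), against 3.57% to 4.07% of all genes. Those that fell numbered 146 to 171 (7.92% to 9.27%), against 7.41% to 8.38%. The next sets hold fewer genes, and over all genes tested 3.83% rose and 7.97% fell. Genes that held a peak gave 61 (6.7%) and 63 (6.92%). Genes within 50 kb gave 86 (6.69%) and 102 (7.93%). Genes of the 630 strongest peaks, an alternative added after seeing the data, gave 43 (7.89%) and 51 (9.36%). A replicate block gave 116 (6.29%) and 157 (8.51%) for genes nearest to a peak, against 3.83% and 7.87% of all genes. Replicate numbers did not pair the libraries (correlations of −0.208 to 0.0742), and the block is given for completeness. Of 971 pairs of a named gene and an alternative 911 kept their side of the threshold, 50 lost it, 10 gained it and 0 reversed.

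The WT replicate 1 list holds 808 peaks, and the absence of a peak from a list does not show the absence of THRAP3. Without read coverage at the BKO-only regions in WT cells, their WT signal was not analysed here.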
